A study of Homo sapiens with 6 samples.

Results

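Transcripts of 9 genes that control the passage of RNA polymerase II into productive elongation were followed in ARPE-19 cells given the kinase inhibitor SRPIN803. The genes were HEXIM1, LARP7, CDK9, CCNT1, CCNT2, BRD2, AFF4, CDK12 and CDK13. They were taken as every probe set whose platform annotation names 1 of these symbols and no other gene, which gave 41 probe sets of the 41091 that name a single gene, or 9 of 19775 genes. ARPE-19 is an established human line derived from retinal pigment epithelium. It was grown in DMEM/Ham's F-12 with 10% serum. The labels put 3 arrays in the control group, exposed to 0.1% DMSO alone, and 3 in the group exposed to 10 µM SRPIN803, with 4 h of exposure in both. Whether the 3 replicates of a group are 3 cultures is not stated, so a p-value here reflects only how far these samples spread, and that spread may be technical. SRPIN803 blocks the kinase SRPK1, which phosphorylates SR splicing factors, and CK2, another kinase. The comparison asked whether these transcripts carry a sign of disturbed transcription elongation.

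RNA polymerase II commonly pauses shortly after it starts a gene. It is released by P-TEFb, a kinase made of CDK9 and a T-type cyclin (CCNT1 or CCNT2), which phosphorylates the polymerase tail and the factors that hold it. Much of P-TEFb is kept inactive by the 7SK particle, in which HEXIM1 blocks the kinase and LARP7 protects the 7SK RNA. BET proteins such as BRD2 and scaffolds such as AFF4 bring active P-TEFb to genes, and CDK12 and CDK13 phosphorylate the polymerase further along the gene. A rise of HEXIM1 mRNA is widely used as a marker of treatment with BET inhibitors, and loss of short-lived mRNAs is typical of CDK9 inhibitors.

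Every value is a deposited log2 signal of 1 probe set on 1 array, and a level of one probe set cannot be set against that of another. Array medians lay between 5.25 and 5.27. SRPIN803 replicate 2 stood apart. It lay more than 0.5 below all 5 other arrays in 455 of the 27307 bright probe sets (those that reach the median level of all, 5.26), against 0 to 21 probe sets for each of the other arrays. Among the 41 probe sets it did so in 4, of which 2 are of BRD2 and 1 each of CCNT1 and AFF4, so those results are given with and without it. Its 5' to 3' difference of the GAPDH control probe sets was -0.37, beside -0.48 to -0.38 on the other arrays, and that of actin was -1.46, beside -2.16 to -1.41. Of 12 retinal pigment epithelium markers measured, 6 lay at or above the median gene level of 6.53. These were the keratins KRT8 and KRT18, the factors OTX2 and MITF, BEST1 and SERPINF1. RPE65, a defining enzyme of mature pigment epithelium, lay below that level, as did RLBP1, TTR, TYR, TYRP1 and PMEL. That level is only a rough guide, since probe sets differ in brightness. Of 5 endothelial, 4 leukocyte and 5 neuronal and photoreceptor markers 0 reached that level, and of 7 fibroblast markers 2 did, COL1A1 and PDGFRB. The mean over the leukocyte markers was 4.22 to 4.25 in DMSO and 4.30 to 4.47 in SRPIN803. Over the other 3 lists the ranges of the groups overlapped. MITF was the 1 marker called, higher by 0.35 ± 0.07 (limma's adjusted p = 0.0312) but in none of the 6 fits on 5 arrays, and its part in any result was not tested. In these bulk RNA samples fewer cells of a type and less RNA per cell cannot be told apart.

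HEXIM1, the marker gene of the question, showed no change beyond the spread of the arrays. Its main probe set, 202814_s_at, read 9.33, 9.33 and 9.36 in DMSO and 9.35, 9.27 and 9.28 in SRPIN803. The groups overlapped, and the SRPIN803 to DMSO ratio was 0.971 (95% confidence interval 0.888 to 1.06). The log2 change was -0.04 ± 0.06 (SE, 3 against 3 arrays, limma's adjusted p = 0.759). The second bright probe set, 202815_s_at, read 8.17, 8.26 and 8.42 in DMSO and 8.14, 8.21 and 8.04 in SRPIN803, a change of -0.15 ± 0.09 that was not called. The third, 238442_at, lay below the median level and changed by 0.05 ± 0.10.

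The 250 bases before the annotated start of HEXIM1 (chr17:45148225-45148474, plus strand, RefSeq on GRCh38.p14) are shown because this promoter drives the marker gene. Capitals mark 4 motifs searched on both strands. These are the TATA box TATATAA, the CCAAT box, the GC box GGGCGG and the palindrome TCGCGA. No 2 matches in this window overlap.

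HEXIM1: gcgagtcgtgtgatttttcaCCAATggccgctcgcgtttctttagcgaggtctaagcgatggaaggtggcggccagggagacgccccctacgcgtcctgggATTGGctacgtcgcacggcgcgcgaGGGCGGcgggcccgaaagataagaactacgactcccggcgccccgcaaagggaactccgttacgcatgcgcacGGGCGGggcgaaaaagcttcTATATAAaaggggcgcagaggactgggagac

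The window holds 1 TATATAA, which starts 31 bases before the annotated start, and 2 each of CCAAT and GGGCGG. Among all 35116 promoter windows of the same length, 2.42% hold TATATAA, 32.0% hold CCAAT and 42.6% hold GGGCGG. All 9 genes have a window in that table. A match describes the letters only.

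LARP7, the partner of HEXIM1 in the 7SK particle, had slightly higher values on its main probe set and not on its others. That probe set, 212785_s_at, read 10.03, 9.99 and 9.97 in DMSO and 10.12, 10.25 and 10.11 in SRPIN803. Every SRPIN803 array lay above every DMSO array, by a change of 0.16 ± 0.06 that was not called (adjusted p = 0.209). The dimmer probe set 241385_at went the other way without overlap, at -0.14 ± 0.07, and 215246_at, below the median level, was at -0.17 ± 0.14. The test of probe sets moving apart, limma's diffSplice, did not call LARP7 (adjusted p = 0.0979).

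**Figure D1:**
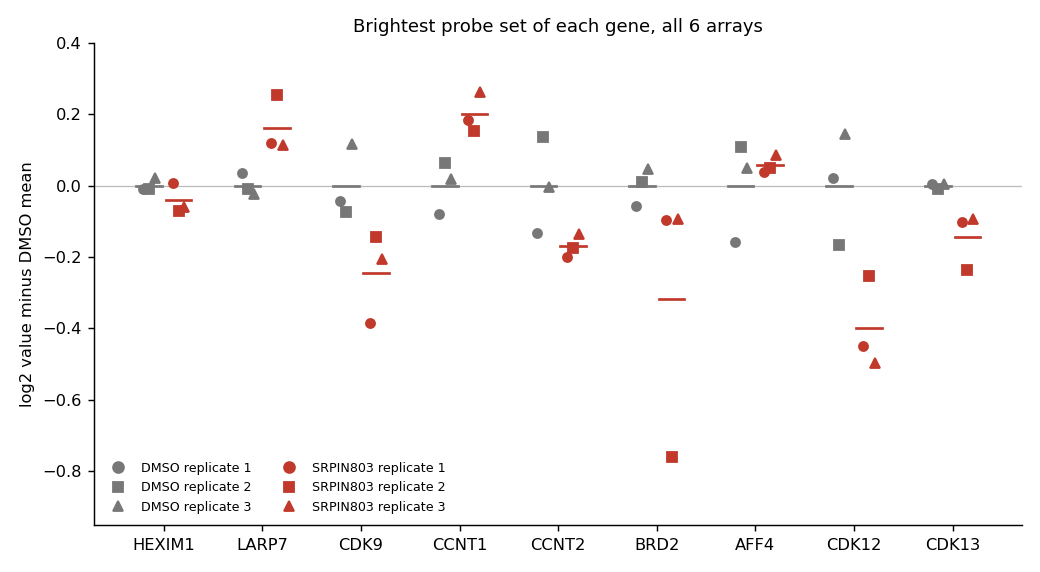
Log2 value of the brightest probe set of each of the 9 genes on every array, minus that gene's DMSO mean (vertical axis), with horizontal bars at the group means. SRPIN803 values of CDK12 lie below all DMSO values, HEXIM1 stays within 0.1 of its DMSO mean on all 6 arrays, and the low BRD2 point is SRPIN803 replicate 2.

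The kinase and cyclins of P-TEFb moved little and not in 1 direction. CDK9, the catalytic subunit, read 7.91, 7.88 and 8.07 in DMSO and 7.57, 7.81 and 7.75 in SRPIN803. All SRPIN803 arrays were below all DMSO arrays, but the change of -0.25 ± 0.09 was not called (adjusted p = 0.160). A dimmer CDK9 probe set, 236023_at, was also lower without overlap, at -0.32 ± 0.11, and 228901_at was at 0.07 ± 0.10. Both of these lay below the median level.

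CCNT1, the cyclin that most P-TEFb carries, read 9.45, 9.60 and 9.55 in DMSO and 9.72, 9.69 and 9.80 in SRPIN803 on its main probe set. The SRPIN803 arrays were all higher, by 0.20 ± 0.06, without a call (adjusted p = 0.133). The other probe set, 206967_at, read 6.62, 6.61 and 6.54 in DMSO and 6.68, 5.47 and 6.35 in SRPIN803. Its change of -0.43 ± 0.27 rested on the 1 low value of SRPIN803 replicate 2 and was -0.08 without that array. The other T-type cyclin gene, CCNT2, read 8.49, 8.76 and 8.62 in DMSO and 8.42, 8.45 and 8.49 in SRPIN803, a change of -0.17 ± 0.08 (adjusted p = 0.287). Its 3 other probe sets changed by -0.07 to 0.04.

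BRD2 and AFF4, which bring P-TEFb to chromatin, gave no call either. BRD2, a reader of acetylated histones, read 9.90, 9.96 and 10.00 in DMSO and 9.86, 9.19 and 9.86 in SRPIN803 on 214911_s_at. The change of -0.32 ± 0.17 (adjusted p = 0.373) was mostly due to replicate 2 and shrank to -0.09 without it. A second bright probe set, 208685_x_at, whose probes may also match other sequences, behaved alike, at -0.29 ± 0.17 with all arrays and -0.08 without replicate 2. The third, 208686_s_at, had no low array and changed by -0.08 ± 0.07.

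AFF4, the scaffold of the super elongation complex, read 10.54, 10.81 and 10.75 in DMSO and 10.74, 10.75 and 10.79 in SRPIN803 on its main probe set, so the groups overlapped. Its change was 0.06 ± 0.08 (adjusted p = 0.764). Of its 8 probe sets 4 were bright. The lowest change was that of 1555436_a_at, which read 6.02, 5.81 and 5.61 in DMSO and 5.61, 4.46 and 5.06 in SRPIN803. It was -0.77 ± 0.26 with all arrays and -0.48 without SRPIN803 replicate 2, and was called in neither fit. Probe sets of AFF4 were not called as moving apart (adjusted p = 0.0678), but were without SRPIN803 replicate 1 (adjusted p = 0.00258).

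CDK12 was the 1 gene of the 9 with probe sets that passed the test. CDK12 pairs with cyclin K and keeps polymerase moving through long genes, with DNA repair genes known as sensitive targets. Of its 8 probe sets, the 5 brightest were all lower after SRPIN803, by 16.8% to 34.5%. In each of the 5 the groups did not overlap, which held for 31.3% of all bright probe sets. These 5 read 1 gene on the same 6 arrays, so they are not independent of each other. Probe set 225690_at read 8.18, 8.26 and 8.20 in DMSO and 7.82, 7.73 and 7.86 in SRPIN803. It fell by 0.41 on the log2 scale (SE 0.07, limma's adjusted p = 0.0295 over all 54613 probe sets), a level 1.33-fold lower. Probe set 219226_at read 8.04, 8.11 and 8.19 in DMSO and 7.73, 7.39 and 7.56 in SRPIN803. It fell by 0.56 (SE 0.10, adjusted p = 0.0351), a level 1.47-fold lower.

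The 3 others of the 5 brightest CDK12 probe sets were lower without passing the threshold. Probe set 225697_at read 8.55, 8.48 and 8.61 in DMSO and 8.16, 7.58 and 8.07 in SRPIN803. Its change of -0.61 ± 0.15 (adjusted p = 0.0827) was -0.43 without SRPIN803 replicate 2. The brightest, 225694_at, read 8.55, 8.36 and 8.67 in DMSO and 8.07, 8.27 and 8.03 in SRPIN803. It changed by -0.40 ± 0.10, with adjusted p = 0.106 over probe sets and 0.0620 over genes. Probe set 225691_at changed by -0.26 ± 0.07 (adjusted p = 0.106), the smallest of the 5. With any 1 array left out the 5 changes stayed between -0.72 and -0.23. The calls did not last, since 225690_at was no longer called in any of the 6 fits on 5 arrays (adjusted p 0.0716 to 0.123) and 219226_at kept it only without SRPIN803 replicate 1 (adjusted p 0.0386, otherwise up to 0.144).

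The remaining, dimmer CDK12 probe sets did not share the lower values. Probe set 213557_at read 5.57, 5.80 and 5.63 in DMSO and 5.61, 5.92 and 6.10 in SRPIN803, with overlapping groups and a change of 0.21 ± 0.13. At a level of 5.77 it still counts as a bright probe set. In diffSplice it stood 0.66 above the other bright CDK12 probe sets (adjusted p = 0.00493). CDK12 was the 1 member gene of 8 tested that was called as moving apart (Simes, adjusted p = 0.00840), where 3.36% of 5535 genes were called. Dropping DMSO replicate 1 ended that call (adjusted p = 0.139), as did dropping DMSO replicate 3 (adjusted p = 0.114), dropping SRPIN803 replicate 3 (adjusted p = 0.109) or testing probe sets of any level. The probe sets 1556654_at and 1556655_s_at, far below the median level, were at 0.23 ± 0.12 and 0.05 ± 0.10. Which part of the CDK12 transcript each probe set reads was not analysed here.

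**Figure D2:**
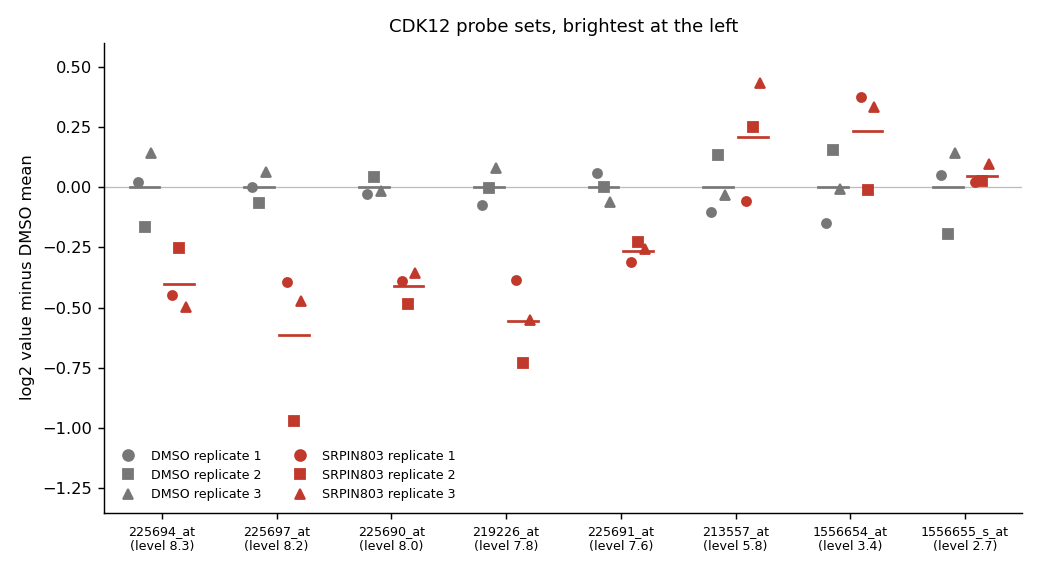
Log2 values of the 8 CDK12 probe sets on every array, each minus its DMSO mean (vertical axis), ordered from the brightest at the left with the mean level in brackets. In the first 5 all SRPIN803 points lie below all DMSO points, and in the remaining 3 the groups overlap.

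CDK13, the close relative of CDK12 that also pairs with cyclin K, showed a smaller change on its main probe set. Its main probe set, 207318_s_at, read 9.42, 9.41 and 9.42 in DMSO and 9.32, 9.18 and 9.33 in SRPIN803, lower in all 3 SRPIN803 arrays by 0.14 (a change of -0.14 ± 0.06, adjusted p = 0.256). Without SRPIN803 replicate 2 the change was -0.10. Its 6 other probe sets changed by -0.18 to 0.04, with overlapping groups in each. The per-array difference of CDK12 minus CDK13 on the main probe sets was -0.90 ± 0.15 in DMSO and -1.15 ± 0.21 in SRPIN803 (SD, n = 3). The groups overlapped, and a two-sided exact permutation test gave p = 0.2, where 0.1 is the smallest value 3 against 3 arrays allow. The test could therefore not pass 0.05 whatever the values, and this 1 pair was chosen after the values were seen.

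The 250 bases before the annotated start of CDK12 (chr17:39461236-39461485, plus strand) and before the first listed of 2 starts of CDK13 (chr7:39950006-39950255, plus strand) are shown to compare the gene with called probe sets with its relative. Both are from RefSeq on GRCh38.p14, with the same 4 motifs in capitals.

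CDK12: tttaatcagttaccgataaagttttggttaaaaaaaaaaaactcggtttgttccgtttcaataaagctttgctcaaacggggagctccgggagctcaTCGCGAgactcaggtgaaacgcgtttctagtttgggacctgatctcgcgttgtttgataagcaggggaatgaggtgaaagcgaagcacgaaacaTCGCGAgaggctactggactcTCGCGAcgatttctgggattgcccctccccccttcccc

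CDK13: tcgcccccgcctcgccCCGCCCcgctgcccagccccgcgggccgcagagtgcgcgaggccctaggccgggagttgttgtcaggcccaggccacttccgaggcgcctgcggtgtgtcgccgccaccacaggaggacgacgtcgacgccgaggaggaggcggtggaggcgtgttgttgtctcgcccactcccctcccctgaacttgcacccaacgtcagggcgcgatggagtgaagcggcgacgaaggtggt

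The CDK12 window holds TCGCGA 3 times, starting 153, 59 and 38 bases before the start, and none of the other 3 motifs. TCGCGA was added to the search after the CDK12 sequence was read. Of 35116 windows 928 (2.64%) hold it at least once and 6 hold it 3 or more times. The CDK13 window holds 1 GGGCGG and no TCGCGA. The share of G and C was 48.8% in the CDK12 window, 72.0% in that of CDK13 and 62.4% in that of HEXIM1, with a median of 58.0% over all windows.

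Counted over the genes, 0 of the 9 were called on the brightest probe set, where 5.84% of all 19775 genes were called by limma, so no call at all is near the background for 9 genes. An unadjusted p under 0.05 was reached by 5 of them and by 19.5% of all genes. In a separate limma fit of only the genes at or above the median gene level, 3265 of 9888 genes reached it. The groups did not overlap in 7 of the 9, 5 lower and 2 higher, where this held for 25.6% of all genes (10.4% lower, 15.2% higher) and for 38.0% of those at or above the median gene level. All 9 lay above that level. When only genes at that level were fitted, limma called 2 of the 9, CDK12 lower (adjusted p = 0.0181) and CCNT1 higher (adjusted p = 0.0387), where that fit called 19.7% of its 9888 genes, so 2 of 9 is near its background. Over probe sets, 2 of 41 were called, both of CDK12 and both lower, against 2.22% of all probe sets (1.19% higher, 1.03% lower). Separate groups were seen in 14 of 41 probe sets, 12 lower and 2 higher, against 21.5% of all probe sets (10.1% lower, 11.3% higher). Among the bright ones this held for 13 of 26, 11 lower and 2 higher, against 31.3% of all bright probe sets. CDK12 alone gave 5 of the lower ones. The median log2 change of the 9 genes was -0.14, beside 0.02 over all genes tested.

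**Figure D3:**
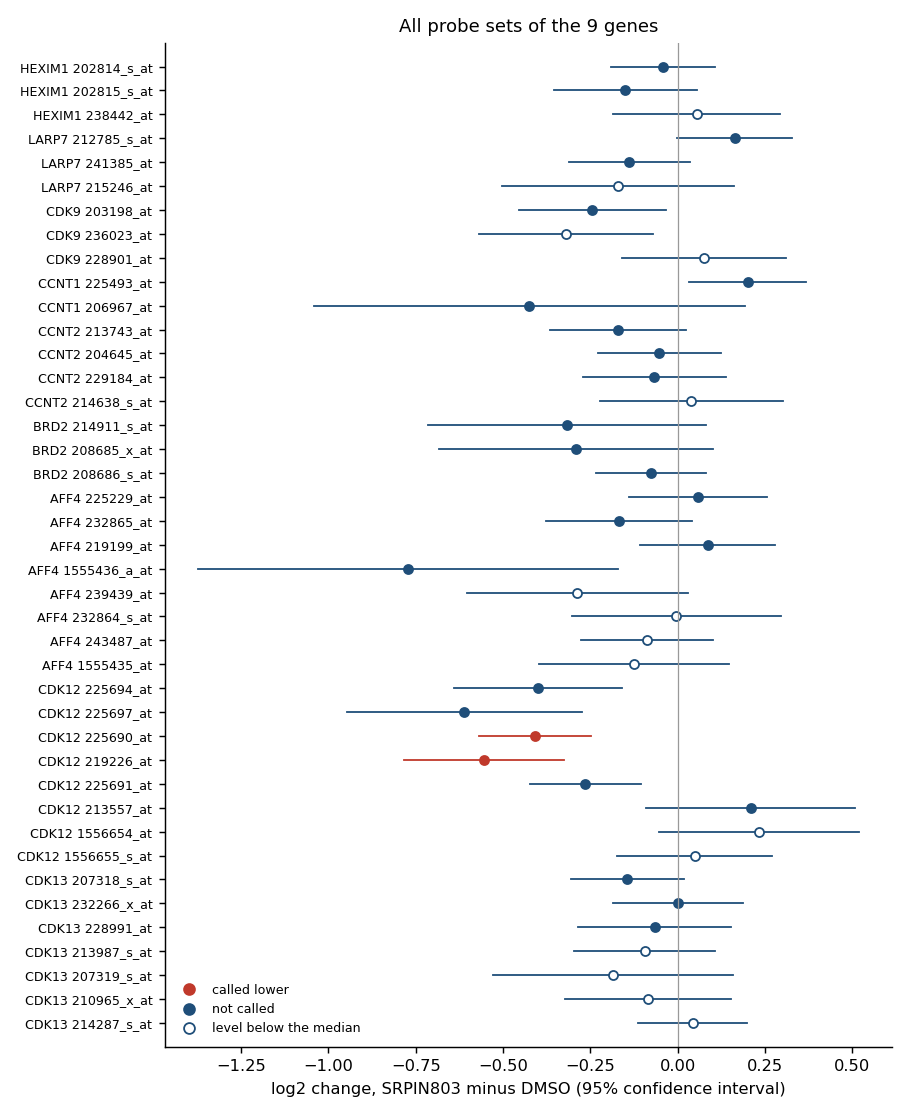
Log2 change (SRPIN803 minus DMSO) of all 41 probe sets with its 95% confidence interval, from limma's fit over 54613 probe sets. Red marks the 2 called probe sets, both of CDK12, and open circles mark the 15 probe sets below the median level.

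The rest of the elongation machinery changed at few points, and each called gene was higher. Of 4 other BET and 7SK genes measured 0 were called, with HEXIM2, a relative of HEXIM1, at 0.26 ± 0.08 (adjusted p = 0.0982). HEXIM2 read 6.48, 6.73 and 6.66 in DMSO and 6.86, 6.86 and 6.93 in SRPIN803. In the super elongation complex 1 of 9 genes rose, EAF2, a partner of the elongation factor ELL, by 0.59 ± 0.12 (adjusted p = 0.0359). Its probe set lay below the median level, and its 3 probe sets ranged from 0.00262 to 0.59. Of 8 NELF, DSIF and related elongation factor genes 0 were called, with IWS1 at -0.18 ± 0.06 (adjusted p = 0.153). In the PAF1 complex, which travels with the polymerase, 1 of 6 rose, CTR9, by 0.28 ± 0.06 (adjusted p = 0.0423).

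Among 9 other transcription-associated kinases and cyclins 2 rose and 0 fell. CDK19, a kinase of the Mediator complex, rose by 0.34 ± 0.07 (adjusted p = 0.0268), and CCNH, the cyclin of the TFIIH kinase CDK7, by 0.30 ± 0.06 (adjusted p = 0.0254). Both were small changes without overlap of the groups. EAF2, CTR9 and CCNH were called in none of the 6 fits on 5 arrays (highest adjusted p 0.144), and CDK19 kept it only without SRPIN803 replicate 2. The 4 probe sets of CDK19 ranged from -0.02 to 0.34, and their mean changed by 0.14 without a call (adjusted p = 0.377). Medians of these lists lay between -0.05 and 0.08, beside 0.02 over all genes. Across all genes 3.46% were called higher and 2.37% lower.

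Marker genes that rise under BET inhibitors were split. Of 7 genes 1 rose and 1 fell, with a list median of 0.06. SERPINI1, a serine protease inhibitor, read 4.99, 5.03 and 5.27 in DMSO and 5.65, 5.64 and 5.54 in SRPIN803 and rose by 0.51 ± 0.09 (adjusted p = 0.0180). ZCCHC24 read 8.87, 8.93 and 8.98 in DMSO and 8.45, 8.61 and 8.54 in SRPIN803, a change of -0.39 ± 0.07 (adjusted p = 0.0167), against the direction of the list. The 5 histone genes of the list changed by -0.13 to 0.15 without a call. SERPINI1 lay below the median gene level and kept its call only without DMSO replicate 3 or SRPIN803 replicate 3. ZCCHC24 lost its call without DMSO replicate 2 or 3 or SRPIN803 replicate 3 (adjusted p up to 0.0816).

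Short-lived mRNAs were split. Of 35 such genes measured 7 fell and 3 rose, where 2.37% of all genes fell and 3.46% rose, and the list median was -0.08. The mean over the list was 9.42 to 9.45 on the DMSO arrays and 9.26 to 9.32 on the SRPIN803 arrays, without overlap. This mean includes CXCL8, whose change was by far the largest, and no mean was taken without it. The list was chosen with earlier results of these data known. The largest change was in CXCL8, the chemokine interleukin-8, at -2.18 ± 0.14 (adjusted p = 0.000488), followed by EGR1, an early response factor, at -0.82 ± 0.14 (adjusted p = 0.0192). EGR1 lost its call without DMSO replicate 2 (adjusted p = 0.0819) or DMSO replicate 3 (adjusted p = 0.0779), and CXCL8 kept its call in each such fit. The 5 other genes that fell were the chemokine genes CXCL1 at -0.75 and CCL2 at -0.53, the NF-kappaB inhibitor gene NFKBIA at -0.66, and the transcription factor genes KLF6 at -0.61 and JUN at -0.32. The genes that rose were HES1 at 0.73, ID2 at 0.64 and GADD45B at 0.33. Among the genes not called, MYC was at 0.04 ± 0.06 and the survival gene MCL1 at 0.03 ± 0.05 (adjusted p = 0.800 and 0.841). These 10 genes beside CXCL8 and EGR1 were named after their values were seen. With 1 array left out the count of falls was 4 to 6 (4 without DMSO replicate 2 or 3) and that of rises 0 to 2 (0 without DMSO replicate 2 or 3).

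The measured DNA damage response genes, whose transcripts are known to depend on CDK12, were not called lower beside the lower CDK12 values. Of 13 listed genes 10 were measured, and BRCA2, FANCA and FANCD2 were not. Of these 10 genes 0 fell and 2 rose, where 2.37% of all genes fell and 3.46% rose. The list median was 0.23. BRCA1, a homologous recombination gene, read 8.57, 8.30 and 8.26 in DMSO and 9.15, 8.82 and 8.79 in SRPIN803 and rose by 0.54 ± 0.12 (adjusted p = 0.0439). RAD51C, of the same pathway, rose by 0.45 ± 0.08 (adjusted p = 0.0249). The 2 probe sets of BRCA1 changed by 0.24 and 0.54, and 0 were called in the test over probe sets. The 2 of RAD51C changed by 0.36 and 0.45, and 1 was called there. When only genes at or above the median level were fitted, 6 of the 9 listed genes at that level were called higher. That fit called 1106 of its 9888 genes higher and 838 lower. BRCA1 kept its call only without DMSO replicate 1, and RAD51C only without SRPIN803 replicate 2. ATR, a checkpoint kinase, was at 0.01 ± 0.06, also named after its values were seen. Only mRNA at 4 h was measured, and nascent RNA and kinase activity were not analysed here.

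**Figure D4:**
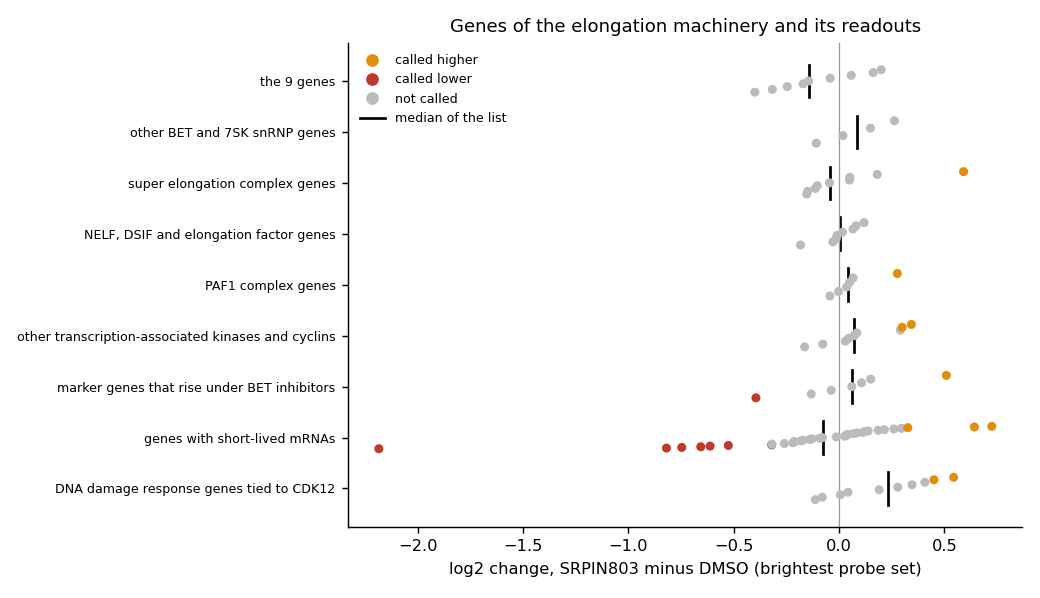
Log2 change (SRPIN803 minus DMSO) of the brightest probe set of each gene, 1 point per gene, for the 9 genes and 8 lists of the elongation machinery and its readouts, with a vertical bar at each list's median. The 9 genes hold no called point, the short-lived list holds 7 called lower and 3 called higher, and the list of DNA damage response genes has its median at 0.23.

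The genes whose 6 values tracked the main HEXIM1 probe set most closely were DEDD, MCMBP, PTP4A2, HMGXB4 and MSRA. Pearson correlations over the 6 arrays were 0.96 to 0.99, out of 9887 genes at or above the median level. HEXIM1 spanned less than 0.1 on these arrays, and none of the 5 genes was called, with log2 changes of -0.17 to -0.04. These correlations describe the arrays the genes share.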

How the data were processed

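The data were 6 Affymetrix 3' arrays of ARPE-19 cells, 3 per group, hybridised with RNA labelled from 100 ng of total RNA. The authors deposited log2 signals, 1 per probe set and array. The submitters' processing notes name RMA, a method that removes background, equalises the arrays and pools each probe set's probes, so a change in total RNA is hidden and changes of dim probe sets are compressed. How RMA was run is not stated in the sources used here. Arrays have no read depth, and their number limits the precision.

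The values were used as deposited. Of 54675 probe sets 62 were controls, and 41091 of the rest named 1 gene, 1801 several and 11721 none. All but 54 of the first were found by gene ID in the reference gene table, and no symbol changed. SRPIN803 was set against DMSO in limma 3.58.1 under R 4.3.3 by lmFit and eBayes (two-sided, 4 residual degrees of freedom), over 19775 genes by their brightest probe set and over 54613 probe sets, with Benjamini-Hochberg adjustment and calls made below 0.05. The ± after a log2 change is the SE from limma, which for main probe sets comes from the gene fit. Probe sets moving apart were tested with diffSplice on bright probe sets only, without those ending in _x_at. These fits were tested on simulated data. Alternatives were other normalizations, filters, variance models, probe set choices, the replicate block and leaving out each array.

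The 9 genes and all lists were chosen with earlier results of these data known. Beside the 9 genes, the text names up to 2 called genes per list with the largest change, or else the 1 with the smallest p, and the 5 genes most correlated with HEXIM1. Genes of the short-lived list other than CXCL8 and EGR1, and ATR, were named after their values were seen. Listed genes that no probe set used here names alone were not analysed. Plots used matplotlib 3.10.9 in Python 3.11.15.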

Additional observations from a re-analysis of the deposited data

How the results depend on the processing

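Among the 9 genes, CCNT1 was called higher in 2 settings and turned to -0.11, without a call, with the mean of all probe sets. No other gene of the 9 with a call in any setting turned sign. The count of the 9 genes called was 0 as reported and with any 1 array left out. It was 2 among genes at or above the median level and with a trended, robust variance (CDK12 lower and CCNT1 higher in both), and 1 (CDK12) at an adjusted p under 0.10. Over all genes the count was 1154 as reported, 324 to 687 with 1 array left out, 1944 at or above the median level, 2036 with the trended variance and 1991 at 0.10. Of the 41 probe sets 2 were called, 0 or 1 with 1 array left out, and 5, all of CDK12, both at or above the median level and with the trended variance. Over all probe sets 1214 were called, 215 to 716 with 1 array left out, 2667 at or above the median level, 2997 with the trended variance and 2492 at 0.10. In the test of probe sets moving apart 1 of the 8 member genes tested was called, and 0 to 2 with 1 array left out. With probe sets of any level all 9 were tested and 0 were called. Over all genes the count was 186, or 46 to 288 with 1 array left out.

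With the replicate number as a block (replicate block) 0 of the 9 genes and 0 of the 41 probe sets were called, and 689 genes and 304 probe sets over all. Deviations of same-numbered arrays correlated at 0.39, -0.07 and 0.23. DMSO replicates 1 and 3 correlated best with the SRPIN803 array of their own number, and DMSO replicate 2 with SRPIN803 replicate 3. With so few arrays these values cannot settle whether the numbers mark pairs, and the main fit did not take them as pairs. Some changes turned sign, none of them called as reported or in the setting that turned it. They were HEXIM1 at 0.054 and LARP7 at -0.14 with the brightest probe set not ending in _x_at or _s_at. With the mean of all probe sets they were LARP7 at -0.049, CCNT1 at -0.11 and AFF4 at -0.16. AFF4 lay within -0.021 to 0.11 with 1 array left out (-0.021 without DMSO replicate 1). CDK12 stayed lower in every setting run, from -0.48 to -0.22. Causes were not tested.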
